A study of Mus musculus with 12 samples.

Results

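Messenger RNA of 10 SOX transcription factor genes was followed in mouse primary neural stem cells that had been moved from growth factor medium into medium for neural differentiation. The genes were taken by symbol: Sox1, Sox2, Sox3 and Sox21, Sox4 and Sox11, Sox5 and Sox6, and Sox8 and Sox9. They are 10 of the 54356 genes in the tables and 10 of the 16043 genes tested, since all of them passed the filter on low counts. The cells came in 4 groups of 3 libraries: cells labelled Chd5-/- at 48 h, wild type at 48 h, cells labelled Chd5-/- at 3 h and wild type at 3 h. Before the switch all cells were grown with epidermal growth factor (EGF) and fibroblast growth factor 2, and both genotypes then received neurobasal medium with B-27. Chd5 encodes a chromodomain helicase of the nucleosome remodelling family, and the series asks which genes differ in cells that lack it. The labels give neither the deleted part of Chd5 nor the animals, lines or cultures behind each replicate, and p-values thus measure the spread between these libraries, which may be technical.

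SOX proteins bind DNA through a high-mobility-group box, the domain first seen in the testis-determining factor SRY, and recognise short sites related to ACAAAG and ACAATG. In neural tissue the SOXB1 proteins SOX1, SOX2 and SOX3 keep cells in the progenitor state, and the SOXB2 protein SOX21 counteracts them. The SOXC proteins SOX4 and SOX11 act in committed precursors and young neurons, the SOXE proteins SOX8 and SOX9 in glial fate, and the SOXD proteins SOX5 and SOX6, which lack an activation domain of their own, modify the action of other SOX proteins. Since these are bulk RNA measurements, fewer cells that express a gene and less RNA per cell cannot be told apart.

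Library size ran between 14.11 and 18.71 M estimated reads. In 3 of the 4 groups, 1 library stood apart from the other 2 of its group, with a chi-square per gene of 128 to 410 against them, where all other pairs within a group gave 1.77 to 5.09. Cytosolic ribosomal protein genes took 13.23% of the reads of wild-type replicate 1 at 3 h, and 3.59% to 3.72% in the other 2 wild-type libraries of that time. At 48 h, replicate 2 stood apart in both genotypes: the summed level of 8 mitosis genes was 1732 CPM (counts per M reads of scaled library size) in the library labelled Chd5-/- and 1879 CPM in wild type, against 109 to 121 CPM in the other 48 h libraries and 1595 to 2985 CPM at 3 h. Results are given with all 12 libraries and then without these 3, a choice made with the data seen. Chd5 itself did not show a loss in reads summed over its transcripts. Its 48 h levels were 5.7, 3.34 and 2.96 CPM in libraries labelled Chd5-/-, against 6.59, 7.15 and 5.28 CPM in wild type. Its 3 h levels were 5.25, 6.31 and 7.06 CPM in libraries labelled Chd5-/-, against 3.54, 3.93 and 4.66 CPM in wild type. Neither difference passed the test (edgeR adjusted p = 0.467 and 0.257), so the genotype is given as labelled. In TPM (transcripts per M, scaled by transcript length) the 48 h levels were 2.56, 3.88 and 2.6 in libraries labelled Chd5-/-, against 0.624, 0.495 and 0.519 in wild type. The order of the genotypes at 48 h thus depended on the scale. A sum over transcripts cannot show whether a particular Chd5 transcript was lost.

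**Figure D1:**
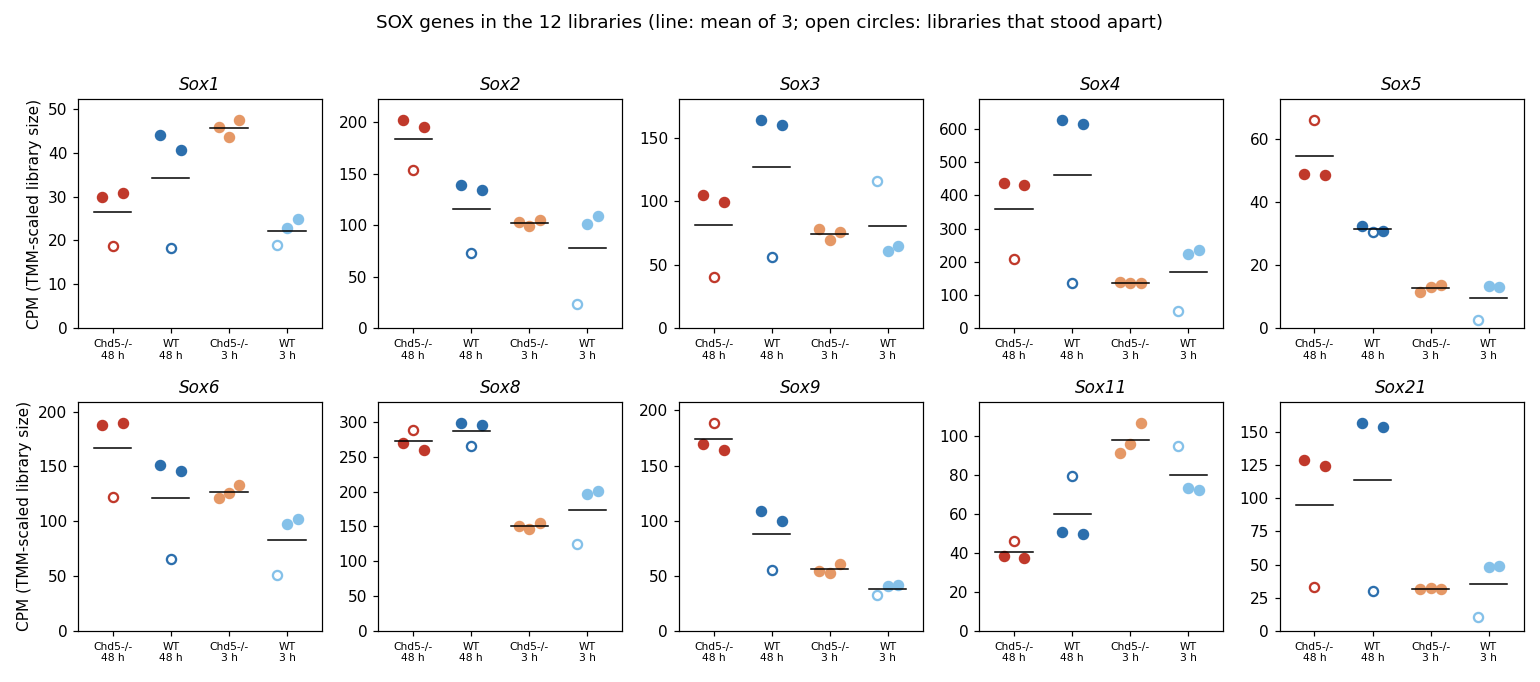
Level of each SOX gene in CPM (vertical axes, linear, from 0) in the 12 libraries of the 4 groups. Each circle is 1 library, the line is the mean of the 3 libraries of a group, and open circles are the 3 libraries that stood apart. The Sox9 circles at 48 h lie above those at 3 h in both genotypes, and the open circles of Sox4 and Sox21 lie far below the filled ones of their group.

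Between 3 h and 48 h the family moved in both directions. Sox9, Sox8 and Sox5 were higher at 48 h than at 3 h in both genotypes, and Sox11 was lower at 48 h in libraries labelled Chd5-/-. In those libraries 3 of the 10 genes were higher and 1 was lower at 48 h than at 3 h (edgeR quasi-likelihood test, adjusted p under 0.05), in a comparison where 22.1% of all tested genes passed, 14.1% as higher and 8.03% as lower. In wild type 3 of the 10 were higher and 0 lower, where 22.9% of all tested genes passed, 12.7% as higher and 10.1% as lower. At an unadjusted p under 0.05 the counts were 7 in libraries labelled Chd5-/- and 5 in wild type. The share of all tested genes at an unadjusted p was not taken, here or below, so such counts are only a description. The median log2 fold change of the 10 genes, 48 h over 3 h, was 0.85 in libraries labelled Chd5-/- and 0.69 in wild type, beside 0.04 and 0.09 over all tested genes. Between the times, levels did not overlap for 8 of the 10 genes in libraries labelled Chd5-/- and for 3 of 10 in wild type, where this held for 64.6% and 37.7% of all tested genes.

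Without the 3 libraries that stood apart, all 10 genes passed in both time comparisons, 8 higher and 2 lower in libraries labelled Chd5-/- and 9 higher and 1 lower in wild type. In that setting 79.0% of all tested genes passed in libraries labelled Chd5-/- (38.9% higher, 40.1% lower) and 76.0% in wild type (37.6% higher, 38.4% lower), so a call in itself says little about SOX genes. The members that added a call were Sox2, Sox3, Sox4, Sox6 and Sox21 as higher in both genotypes, and Sox1, which was lower at 48 h in libraries labelled Chd5-/- and higher at 48 h in wild type. Sox11 was then lower in wild type too.

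**Figure D2:**
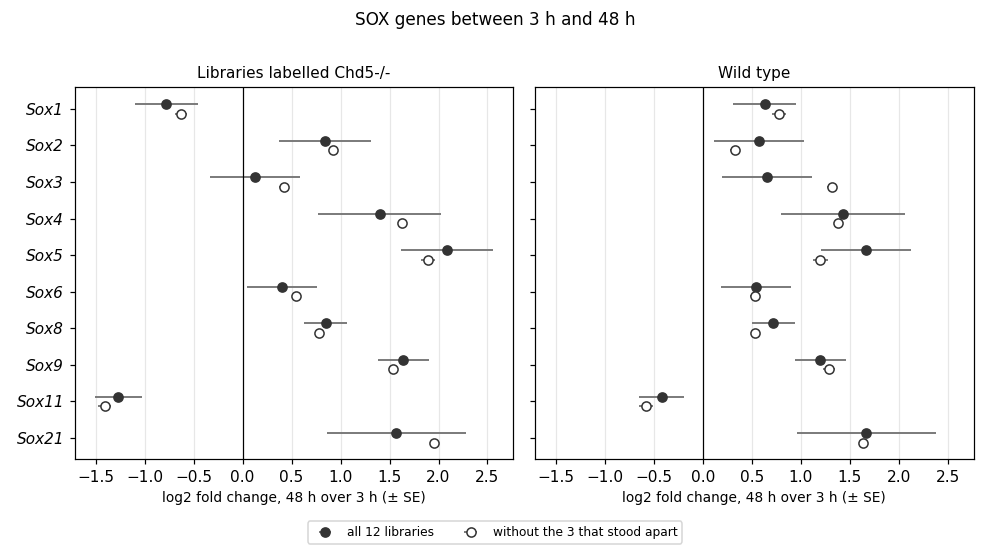
Log2 fold change of each SOX gene, 48 h over 3 h (horizontal axes), in libraries labelled Chd5-/- and in wild type, with the SE as bars. Filled circles use all 12 libraries and open circles leave out the 3 that stood apart. Sox9 lies at 1.64 and 1.20 with all libraries, and Sox1 lies on opposite sides of 0 in the 2 genotypes.

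Between genotypes, no SOX gene passed the test with all 12 libraries. At 48 h 0 of 10 passed, where 2.74% of all tested genes did (1.53% higher, 1.21% lower), and 2 had an unadjusted p under 0.05 (Sox9 and Sox11). At 3 h 0 of 10 passed, where 6.71% of all tested genes did (3.24% higher, 3.48% lower), and 1 had an unadjusted p under 0.05 (Sox1). DESeq2 called 1 of 10 at each time, Sox9 at 48 h and Sox1 at 3 h, where it called 6% and 13.6% of the genes to which it gave an adjusted p. Levels did not overlap between the genotypes for 4 genes at 48 h, with Sox2, Sox5 and Sox9 higher and Sox11 lower in libraries labelled Chd5-/-, where 23.2% of all tested genes did not overlap. At 3 h this held for 3 genes, Sox1, Sox6 and Sox9, all higher in libraries labelled Chd5-/-, where 45.0% of all tested genes did not overlap.

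With those 3 libraries left out, 10 of 10 genes passed between genotypes at 48 h, 4 higher and 6 lower in libraries labelled Chd5-/-, beside 47.2% of all tested genes (25.6% higher, 21.6% lower). At 3 h 8 of 10 passed, 5 higher and 3 lower, beside 52.5% of all tested genes (27.2% higher, 25.3% lower). The genes higher in libraries labelled Chd5-/- at both times were Sox6 and Sox9, and those lower at both times were Sox4, Sox8 and Sox21. Sox1, Sox3 and Sox11 were lower at 48 h and higher at 3 h. The log2 differences of the members that passed had sizes between that of Sox8 at 48 h (-0.15) and that of Sox1 at 3 h (0.93).

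**Figure D3:**
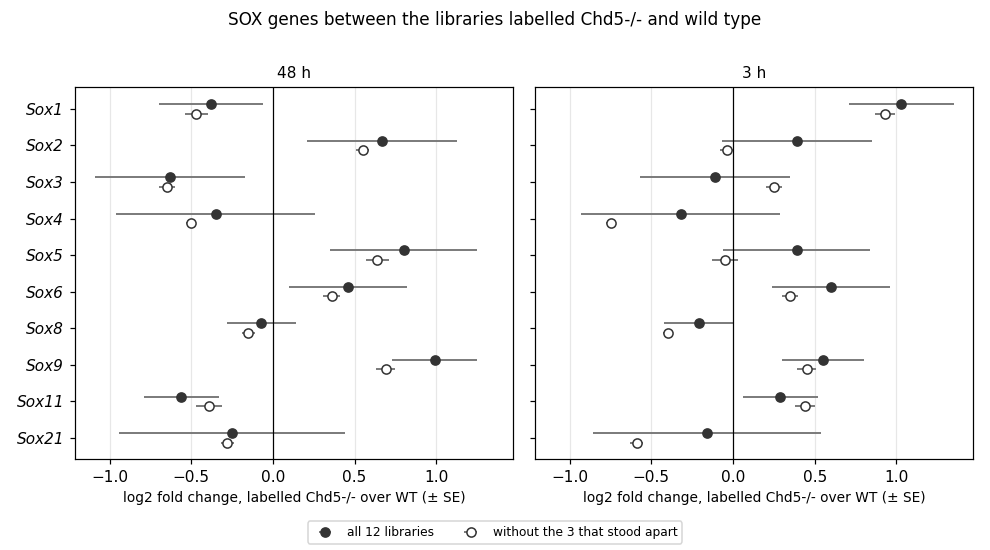
Log2 fold change of each SOX gene, libraries labelled Chd5-/- over wild type (horizontal axes), at 48 h and at 3 h, with the SE as bars. Filled circles use all 12 libraries and open circles leave out the 3 that stood apart. Sox9 lies right of 0 at both times, and Sox1 lies at -0.38 at 48 h and at 1.03 at 3 h.

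Levels between genes were compared per length, in TPM (transcripts per M, scaled by transcript length) and over the 9 libraries that did not stand apart, 3 of them labelled Chd5-/- at 3 h and 2 in each other group. At 48 h libraries labelled Chd5-/- had Sox2 at 90.6, Sox8 at 84.7 and Sox4 at 83.5 mean TPM as the highest members, and the ranges of Sox2 and Sox8 touched (89.0 to 92.3 and 80.4 to 89.1 TPM). Wild type at 48 h had Sox4 at 119, Sox8 at 103 and Sox3 at 80.0 mean TPM, with ranges that did not overlap. At 3 h Sox8 was the highest member in both genotypes, with means of 36.2 TPM in libraries labelled Chd5-/- and 47.8 TPM in wild type, and Sox2 was next, at 33.0 and 33.7 TPM. Sox11 was the lowest member at 48 h, with means of 4.1 TPM in libraries labelled Chd5-/- and 5.41 TPM in wild type. At 3 h the lowest were Sox5, at 3.88 TPM, in libraries labelled Chd5-/- and Sox1, at 3.31 TPM, in wild type. In the lower part of the order at 3 h, Sox9 and Sox11 ranges did not overlap in libraries labelled Chd5-/- (8.44 to 9.65 and 6.79 to 8.25 TPM).

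**Figure D4:**
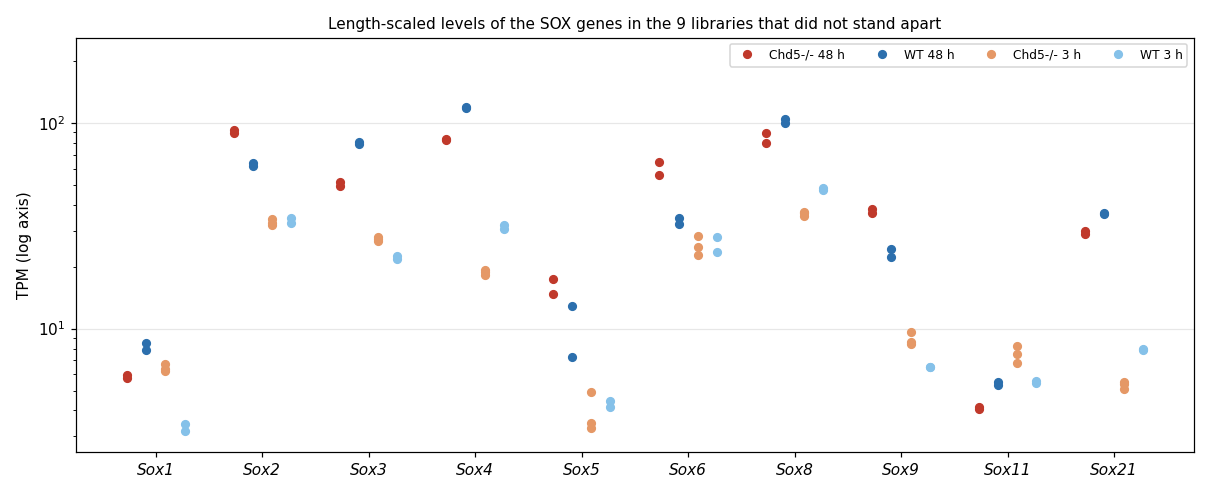
Level of each SOX gene in TPM (vertical axis, log scale) in the 9 libraries that did not stand apart, with 1 circle for each library and 1 colour for each group. Sox8, Sox4 and Sox2 are among the highest members at 48 h in both genotypes, and Sox11 lies at the bottom.

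Sox9 (ENSMUSG00000000567, chromosome 11, 112782224 to 112787760, plus strand, GRCm38) encodes a SOXE factor that starts glial fate in neural stem cells and remains high in astrocytes. Levels of Sox9 at 48 h were 170, 189 and 164 CPM in libraries labelled Chd5-/- (replicates 1, 2 and 3), against 109, 55.0 and 99.4 CPM in wild type. Sox9 at 3 h had 54.8, 53.0 and 60.4 CPM in libraries labelled Chd5-/-, against 32.5, 40.9 and 41.3 CPM in wild type. In each genotype every 48 h library lay above every 3 h library, and at each time every library labelled Chd5-/- lay above every wild-type library. The log2 fold change, 48 h over 3 h, was 1.64 ± 0.26 (SE) in libraries labelled Chd5-/- (edgeR adjusted p = 0.00208) and 1.20 ± 0.26 in wild type (adjusted p = 0.0106). The first call held under every alternative tried. The call in wild type was lost without wild-type replicate 1 at 48 h (1.01, adjusted p = 0.0504) and in a fit of the wild-type libraries alone (1.19, adjusted p = 0.125). That last fit called 0 of 14938 tested genes. Here and below, a wild-type call lost in it is thus not particular to the gene.

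The genotype difference of Sox9 was 0.99 ± 0.26 at 48 h (adjusted p = 0.0751) and 0.55 ± 0.25 at 3 h (adjusted p = 0.217). By DESeq2 the 48 h difference of 0.98 passed (adjusted p = 0.0041). Within the numbered replicates at 48 h the ratio of the library labelled Chd5-/- to wild type was 1.56, 3.44 and 1.65, so the pair of replicate 2, where both libraries kept mitosis genes high, had the largest ratio. The 6 astrocyte markers summed to 3641, 1305 and 3632 CPM in libraries labelled Chd5-/- at 48 h, against 2370, 466 and 2370 CPM in wild type. Each numbered pair thus had the sign of Sox9, but replicate 2 labelled Chd5-/- had the highest Sox9 and the lowest sum of its group. At 3 h the sums overlapped, at 575 to 603 CPM in libraries labelled Chd5-/- and 445 to 858 CPM in wild type. Wild-type replicate 1 had the lowest Sox9 of that time and the highest sum. The part of these markers in the Sox9 differences was not tested. For Sox9, wild-type replicate 2 at 48 h stood at 0.528 of the mean of replicates 1 and 3, and the replicate labelled Chd5-/- at 1.13 of its own. Over the 9 remaining libraries the difference was 0.69 ± 0.06 at 48 h (adjusted p = 4.5e-07) and 0.45 ± 0.06 at 3 h (adjusted p = 5.41e-05). The difference between the 2 time courses was 0.44 ± 0.36 with all libraries (adjusted p = 0.674).

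Sox8 (ENSMUSG00000024176, chromosome 17, 25565892 to 25570686, minus strand) encodes a SOXE factor that acts beside SOX9 and SOX10 in oligodendrocyte precursors. Levels of Sox8 at 48 h were 270, 289 and 260 CPM in libraries labelled Chd5-/-, against 299, 265 and 295 CPM in wild type. Sox8 at 3 h had 151, 147 and 155 CPM in libraries labelled Chd5-/-, against 125, 197 and 201 CPM in wild type. All 48 h libraries lay above all 3 h libraries of their genotype, while the genotypes overlapped at both times. Sox8 rose by 48 h in libraries labelled Chd5-/- (0.85 ± 0.22, adjusted p = 0.0178) and in wild type (0.72 ± 0.22, adjusted p = 0.0372). Both calls were fragile. The call in libraries labelled Chd5-/- was lost without any 1 of replicates 1, 2 and 3 of that genotype at 3 h (adjusted p = 0.0781, 0.0828 and 0.0727) or of replicates 1 and 3 at 48 h (0.0648 and 0.0586). The call in wild type was lost without replicate 1 or 3 of wild type at 48 h (0.116 and 0.111) and without replicate 1, 2 or 3 labelled Chd5-/- at 3 h (0.0686, 0.0686 and 0.0682) or 1 or 3 at 48 h (0.0652 and 0.0646). The log2 fold changes in these fits lay between 0.68 and 0.88. With no filter beyond 1 read both were lost (adjusted p = 0.0963 and 0.134), and the wild-type call also in a fit of the wild-type libraries alone (0.224).

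Sox8 kept its level in replicate 2 at 48 h, at 1.09 of the mean of the other 2 libraries in libraries labelled Chd5-/- and at 0.892 in wild type. The genotype difference was -0.07 ± 0.21 at 48 h (adjusted p = 1) and -0.21 ± 0.21 at 3 h (adjusted p = 0.586). With the 3 libraries left out Sox8 was lower in libraries labelled Chd5-/- at both times, with log2 differences of -0.15 ± 0.04 at 48 h (adjusted p = 0.00369) and -0.40 ± 0.03 at 3 h (adjusted p = 5.16e-07). Between 95.1% and 98.9% of its reads lay on the transcript Sox8-201. An antisense transcript, 2810468N07Rik, with 90 to 510 reads of its own, overlaps 329 of the 3118 exon bases of Sox8. The strand setting of the read assignment is not given in the sources used here, so reads from those bases cannot be split with certainty.

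The SOXD gene Sox5 (ENSMUSG00000041540, chromosome 6, 143828425 to 144781977, minus strand) encodes a factor of neuronal subtype and oligodendrocyte timing. Over time in libraries labelled Chd5-/- it had the largest fold change of the 10 genes with all libraries, and Sox21 had the largest without the 3. Levels of Sox5 at 48 h were 49.0, 66.0 and 48.7 CPM in libraries labelled Chd5-/-, against 32.5, 30.6 and 31.0 CPM in wild type. Sox5 at 3 h had 11.6, 13.2 and 13.8 CPM in libraries labelled Chd5-/-, against 2.63, 13.4 and 13.2 CPM in wild type. The 48 h libraries lay above the 3 h libraries in both genotypes, and at 48 h libraries labelled Chd5-/- lay above wild type. Sox5 rose by 48 h in libraries labelled Chd5-/- (2.09 ± 0.47, adjusted p = 0.0104) and in wild type (1.67 ± 0.46, adjusted p = 0.0276).

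The first of these Sox5 calls was lost without replicate 1 labelled Chd5-/- at 3 h (2.01, adjusted p = 0.0537) and with an offset for transcript length (1.80, adjusted p = 0.139). The wild-type call was lost without wild-type replicate 1 or 3 at 48 h (adjusted p = 0.0774 and 0.0734), with the length offset (1.03, adjusted p = 0.364), and in a fit of the wild-type libraries alone (1.69, adjusted p = 0.147). Between genotypes Sox5 differed by 0.80 ± 0.45 at 48 h (adjusted p = 0.624) and 0.39 ± 0.45 at 3 h (adjusted p = 0.632). Without the 3 libraries the difference was 0.64 ± 0.07 at 48 h (adjusted p = 6.75e-06), and at 3 h it turned to -0.05 ± 0.08 (adjusted p = 0.636). Of its 14 annotated transcripts, Sox5-201 took a median of 88.2% of the reads. In wild-type replicate 1 at 3 h all 26 reads were assigned to Sox5-214, which had 0 reads in every other library.

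The other SOXD gene, Sox6 (ENSMUSG00000051910, chromosome 7, 115470872 to 116038796, minus strand), has 16 annotated transcripts and several first exons. Sox6-210, which starts at base 116031047, carried 73.9% to 99.0% of the reads of the gene. A shorter coding transcript, Sox6-205 (5122 bases), starts at base 115824710 with a first exon of 292 bases (115824419 to 115824710) that no other annotated Sox6 transcript holds. The bases before these 2 starts are shown because the share of Sox6-205 separated the genotypes, and those of Sox8 and Sox11 because these genes rose or fell over time and each have 1 start in the table. Each is the 250 bases before a start, from RefSeq on GRCm38.p6, all on the minus strand and written 5′ to 3′. The capitals mark 5 motifs searched on both strands: ACAATG and ACAAAG (SOX sites), CANNTG (E-box), GGGCGG (GC box) and CCAAT. None of the marked motifs overlap in these 4 stretches.
Sox6-205 start, chr7:115824711-115824960: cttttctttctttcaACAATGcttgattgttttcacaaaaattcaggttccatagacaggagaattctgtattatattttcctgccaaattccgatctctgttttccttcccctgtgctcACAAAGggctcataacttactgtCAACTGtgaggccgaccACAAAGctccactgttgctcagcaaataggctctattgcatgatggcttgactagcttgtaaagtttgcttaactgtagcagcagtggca
Sox6-210 start, chr7:116031048-116031297: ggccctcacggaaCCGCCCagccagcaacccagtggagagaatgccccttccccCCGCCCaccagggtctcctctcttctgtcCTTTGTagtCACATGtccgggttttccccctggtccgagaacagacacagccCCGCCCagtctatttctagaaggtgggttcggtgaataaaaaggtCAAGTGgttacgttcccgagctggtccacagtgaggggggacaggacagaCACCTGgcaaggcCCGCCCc
Sox8 start, chr17:25570687-25570936: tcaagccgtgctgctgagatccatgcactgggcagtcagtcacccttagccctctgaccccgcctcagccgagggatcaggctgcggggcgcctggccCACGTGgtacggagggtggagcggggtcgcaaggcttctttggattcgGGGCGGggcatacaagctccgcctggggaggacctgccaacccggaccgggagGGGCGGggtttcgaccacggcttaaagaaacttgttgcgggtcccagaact
Sox11 start, chr12:27342719-27342968: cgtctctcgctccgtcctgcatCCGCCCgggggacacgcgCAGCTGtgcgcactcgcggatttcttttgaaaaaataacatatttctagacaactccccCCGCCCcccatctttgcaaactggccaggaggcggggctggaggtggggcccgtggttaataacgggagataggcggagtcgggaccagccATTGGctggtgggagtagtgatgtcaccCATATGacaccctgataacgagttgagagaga

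The stretch before Sox6-205 held 1 ACAATG, 2 ACAAAG and 1 E-box match and 0 GC boxes, with a G+C content of 41.6%. The stretch before Sox6-210 held 0 ACAATG, 1 ACAAAG, 3 E-box and 4 GC box matches, with a G+C content of 60.8%. Sox8 had 1 E-box and 2 GC box matches at a G+C content of 65.6%, and Sox11 had 2 E-box, 2 GC box and 1 CCAAT match at 58.0%. Sox5, which also rose over time and has 1 start in the table, is not shown. Its stretch held 1 ACAATG match and 0 of the other motifs, at a G+C content of 39.6%. Of 32817 promoter stretches of the same length, 10.7% held ACAATG, 16.5% ACAAAG, 66.2% CANNTG, 32.7% GGGCGG and 33.8% CCAAT. A match of letters is a description of the sequence. Of the 10 genes 8 were matched in the RefSeq table, all but Sox3 and Sox9.

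At 48 h Sox6 as a whole stood at 188, 122 and 190 CPM in libraries labelled Chd5-/-, against 151, 65.9 and 146 CPM in wild type. Sox6 at 3 h had 121, 126 and 133 CPM in libraries labelled Chd5-/-, against 50.8, 97.4 and 102 CPM in wild type. The genotypes overlapped at 48 h and did not overlap at 3 h. The genotype difference was 0.46 ± 0.36 at 48 h (adjusted p = 0.818) and 0.60 ± 0.36 at 3 h (adjusted p = 0.331), and without the 3 libraries it was 0.36 ± 0.05 (adjusted p = 3.05e-05) and 0.35 ± 0.05 (adjusted p = 2.31e-05). Over time Sox6 gave 0.40 ± 0.36 in libraries labelled Chd5-/- (adjusted p = 0.464) and 0.54 ± 0.36 in wild type (adjusted p = 0.292). Over the 9 remaining libraries these were 0.54 ± 0.04 (adjusted p = 5.47e-08) and 0.53 ± 0.05 (adjusted p = 3.34e-07).

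The transcript Sox6-205, which was singled out after its values were seen, had 36.2, 71.6 and 39.3 estimated reads in libraries labelled Chd5-/- at 48 h, against 8.3, 2.4 and 6.8 in wild type. At 3 h it had 104.1, 117.1 and 143.2 estimated reads in libraries labelled Chd5-/-, against 0, 9.2 and 29.5 in wild type. As a share of Sox6 reads this was 1.2%, 3.9% and 1.3% in libraries labelled Chd5-/- at 48 h and 0.3%, 0.2% and 0.3% in wild type. At 3 h it was 4.8%, 5.9% and 6.1% in libraries labelled Chd5-/- and 0%, 0.5% and 1.6% in wild type. The genotypes did not overlap at either time, and within libraries labelled Chd5-/- the share was lower at 48 h than at 3 h. How many of all transcripts separate the genotypes in this way was not taken, so this is only a description. For gene levels in CPM, 23.2% of all tested genes did not overlap at 48 h and 45% at 3 h. These shares are Salmon's estimates of how reads divide among transcripts that share most exons, and no test was run on them.

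**Figure D5:**
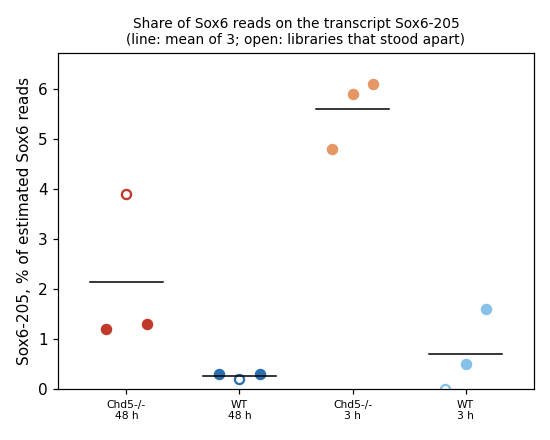
Share of the estimated Sox6 reads assigned to Sox6-205, in percent (vertical axis, linear, from 0), in the 12 libraries. Each circle is 1 library, the line is the mean of 3, and open circles are libraries that stood apart. All 6 libraries labelled Chd5-/- lie above the wild-type libraries of their time.

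Sox11 (ENSMUSG00000063632, chromosome 12, 27334264 to 27342574, minus strand) encodes a SOXC factor that switches on pan-neuronal genes in young neurons. It was the only member that passed as lower over time with all 12 libraries. Levels of Sox11 at 48 h were 38.5, 46.1 and 37.6 CPM in libraries labelled Chd5-/-, against 50.9, 79.7 and 49.6 CPM in wild type. Sox11 at 3 h had 91.5, 96.2 and 107 CPM in libraries labelled Chd5-/-, against 94.9, 73.2 and 72.4 CPM in wild type. In libraries labelled Chd5-/- every 48 h library lay below every 3 h library, and at 48 h all 3 lay below wild type. In wild type the times overlapped through replicate 2 at 48 h. The log2 fold change, 48 h over 3 h, was -1.27 ± 0.24 in libraries labelled Chd5-/- (adjusted p = 0.00457), a call that held under every alternative tried, and -0.42 ± 0.23 in wild type (adjusted p = 0.213).

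The Sox11 time courses differed by -0.86 ± 0.33 (adjusted p = 0.419), so a difference between genotypes in the fall of Sox11 did not pass with all libraries. With the 3 libraries left out the fall was -1.41 ± 0.07 in libraries labelled Chd5-/- and -0.58 ± 0.07 in wild type, and the difference between them was -0.82 ± 0.10 (adjusted p = 1.78e-05). In TPM the same libraries gave means of 4.10 at 48 h against 7.52 at 3 h in libraries labelled Chd5-/-, and of 5.41 against 5.52 with overlapping ranges in wild type, so the lower wild-type level at 48 h depended on the scale. The genotype difference was -0.56 ± 0.23 at 48 h (adjusted p = 0.362) and 0.29 ± 0.23 at 3 h (adjusted p = 0.473). Without the 3 libraries it was -0.39 ± 0.08 at 48 h (adjusted p = 0.000977) and 0.44 ± 0.06 at 3 h (adjusted p = 3.02e-05).

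Sox4 (ENSMUSG00000076431, chromosome 13, 28948919 to 28953713, minus strand), the other SOXC gene, shares many targets with Sox11, and its time courses had the opposite sign. Levels of Sox4 at 48 h were 438, 210 and 432 CPM in libraries labelled Chd5-/-, against 626, 137 and 615 CPM in wild type. Sox4 at 3 h had 138, 136 and 136 CPM in libraries labelled Chd5-/-, against 51.3, 223 and 237 CPM in wild type. Replicate 2 at 48 h was the low library in both genotypes, at 0.483 of the mean of the other 2 in libraries labelled Chd5-/- and at 0.221 in wild type. It is the library in which the mitosis genes were high, and the part of that difference in the level of Sox4 was not tested. Over time Sox4 gave 1.40 ± 0.63 in libraries labelled Chd5-/- (adjusted p = 0.136) and 1.43 ± 0.63 in wild type (adjusted p = 0.118).

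Over the 9 remaining libraries Sox4 was higher at 48 h by 1.63 ± 0.03 in libraries labelled Chd5-/- (adjusted p = 5.1e-14) and by 1.38 ± 0.04 in wild type (adjusted p = 7.4e-13). It was lower in libraries labelled Chd5-/- than in wild type, with log2 differences of -0.50 ± 0.03 at 48 h (adjusted p = 9.06e-08) and -0.75 ± 0.03 at 3 h (adjusted p = 8.64e-10). With all libraries the genotype differences were -0.35 ± 0.61 (adjusted p = 0.991) and -0.32 ± 0.61 (adjusted p = 0.785). The ratio within the numbered replicates at 48 h was 0.700, 1.53 and 0.702, so the pair of replicate 2 went the other way. A lincRNA on the opposite strand, Gm26735, overlaps 2616 of the 4795 exon bases of Sox4 and had 0 to 41 reads.

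Sox2 (ENSMUSG00000074637, chromosome 3, 34650405 to 34652461, plus strand) is the SOXB1 gene most used to define neural stem cells. Levels of Sox2 at 48 h were 202, 154 and 195 CPM in libraries labelled Chd5-/-, against 139, 73.4 and 134 CPM in wild type. Sox2 at 3 h had 103, 99.3 and 105 CPM in libraries labelled Chd5-/-, against 23.4, 101 and 109 CPM in wild type. Libraries labelled Chd5-/- lay above wild type at 48 h, with ratios of 1.45, 2.10 and 1.46 within the numbered replicates. At 3 h the genotypes overlapped, and the low wild-type library was replicate 1, the one with the high ribosomal protein share. Over time the 48 h libraries labelled Chd5-/- all lay above those of 3 h, and the wild-type times overlapped.

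For Sox2 the log2 fold change, 48 h over 3 h, was 0.84 ± 0.47 in libraries labelled Chd5-/- (adjusted p = 0.223) and 0.57 ± 0.46 in wild type (adjusted p = 0.395). With the 3 libraries left out it was 0.92 ± 0.04 (adjusted p = 1.6e-10) and 0.33 ± 0.05 (adjusted p = 2.56e-05), and the 2 courses differed by 0.59 ± 0.06 (adjusted p = 7.98e-06; with all libraries 0.27 ± 0.66, adjusted p = 0.883). The genotype difference was 0.67 ± 0.46 at 48 h (adjusted p = 0.767) and 0.39 ± 0.46 at 3 h (adjusted p = 0.634). Without the 3 libraries it was 0.55 ± 0.04 at 48 h (adjusted p = 4.47e-07), and at 3 h it turned to -0.04 ± 0.04 (adjusted p = 0.522).

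Sox1 (ENSMUSG00000096014, chromosome 8, 12395295 to 12400126, plus strand), the SOXB1 gene most restricted to neural tissue, had genotype differences of opposite sign at the 2 times. Levels of Sox1 at 48 h were 29.8, 18.8 and 30.7 CPM in libraries labelled Chd5-/-, against 44.0, 18.3 and 40.6 CPM in wild type. Sox1 at 3 h had 45.7, 43.5 and 47.4 CPM in libraries labelled Chd5-/-, against 19, 22.8 and 24.9 CPM in wild type. At 3 h libraries labelled Chd5-/- lay above wild type without overlap, and at 48 h both genotypes had a low replicate 2 and overlapped. The genotype difference was -0.38 ± 0.32 at 48 h (adjusted p = 0.850) and 1.03 ± 0.32 at 3 h (adjusted p = 0.0885).

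The Sox1 difference at 3 h passed by DESeq2 (0.98, adjusted p = 0.0357), in a fit of the 3 h libraries alone (1.01, adjusted p = 0.0229) and without wild-type replicate 2 at 48 h (1.04, adjusted p = 0.0184). The 2 time courses of Sox1 were -0.78 ± 0.32 in libraries labelled Chd5-/- (adjusted p = 0.108) and 0.63 ± 0.32 in wild type (adjusted p = 0.179), and they differed by -1.41 ± 0.46 (adjusted p = 0.309). In that test of the difference between courses 0 of 10 SOX genes passed with all libraries, where 0.231% of all tested genes did. At an unadjusted p under 0.05 there were 2, Sox1 and Sox11. DESeq2 called 0, where it called 2.51% of the genes to which it gave an adjusted p. Over the 9 remaining libraries the Sox1 courses were -0.63 ± 0.06 and 0.78 ± 0.07 and differed by -1.41 ± 0.09 (adjusted p = 9.94e-08). In that setting 9 of 10 members passed, all but Sox6, beside 40.4% of all tested genes. The size of the Sox1 fall in libraries labelled Chd5-/- depended on the scale. Without the 3 libraries Sox1 went from 45.5 to 30.2 in mean CPM and from 6.44 to 5.86 in mean TPM.

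Sox3 (ENSMUSG00000045179, chromosome X, 60891366 to 60893430, minus strand) is the third SOXB1 gene and sits on the X chromosome. Levels of Sox3 at 48 h were 105, 40.5 and 99.8 CPM in libraries labelled Chd5-/-, against 164, 56.0 and 160 CPM in wild type. Sox3 at 3 h had 78.6, 69.6 and 75.7 CPM in libraries labelled Chd5-/-, against 116, 61.0 and 64.8 CPM in wild type. At 48 h the ratio within the numbered replicates was 0.640, 0.723 and 0.624, below 1 in all 3 pairs, although the groups overlapped through replicate 2. The genotype difference was -0.63 ± 0.46 at 48 h (adjusted p = 0.780) and -0.11 ± 0.46 at 3 h (adjusted p = 0.904). With the 3 libraries left out it was -0.65 ± 0.05 at 48 h (adjusted p = 4.01e-07) and turned to 0.25 ± 0.05 at 3 h (adjusted p = 0.00153).

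Over time Sox3 gave 0.13 ± 0.46 in libraries labelled Chd5-/- (adjusted p = 0.867) and 0.65 ± 0.46 in wild type (adjusted p = 0.316). Without the 3 libraries it gave 0.42 ± 0.05 (adjusted p = 5.01e-06) and 1.32 ± 0.05 (adjusted p = 9.02e-11). In wild-type replicate 1 at 3 h the position of Sox3 depended on the scale: in CPM it stood above the other 2 wild-type libraries of that time, and in TPM below them (16.3 against 21.9 and 22.6 TPM).

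Sox21 (ENSMUSG00000061517, chromosome 14, 118233232 to 118237030, minus strand), which encodes the SOXB2 repressor, had the largest SE of the 10 genes in both time courses. Levels of Sox21 at 48 h were 129, 32.8 and 124 CPM in libraries labelled Chd5-/-, against 157, 30.3 and 154 CPM in wild type. Sox21 at 3 h had 32, 32.1 and 32 CPM in libraries labelled Chd5-/-, against 10.6, 48.1 and 48.7 CPM in wild type. Replicate 2 at 48 h, with its high mitosis genes, stood near the 3 h level in both genotypes, at 0.259 of the mean of the other 2 libraries in libraries labelled Chd5-/- and at 0.195 in wild type. Over time Sox21 gave 1.57 ± 0.71 (adjusted p = 0.139) in libraries labelled Chd5-/- and 1.67 ± 0.71 in wild type (adjusted p = 0.112). Over the 9 remaining libraries it gave 1.95 ± 0.04 (adjusted p = 4.79e-14) and 1.64 ± 0.04 (adjusted p = 5.07e-13).

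Between genotypes Sox21 gave -0.25 ± 0.69 at 48 h (adjusted p = 1) and -0.16 ± 0.70 at 3 h (adjusted p = 0.907). With the 3 libraries left out it was lower in libraries labelled Chd5-/- at both times, with log2 differences of -0.28 ± 0.04 at 48 h (adjusted p = 2.95e-05) and -0.59 ± 0.04 at 3 h (adjusted p = 1.03e-07). The lincRNA Gm4675 overlaps 713 of the 3799 exon bases of Sox21 on the opposite strand and had 8 to 55 reads, against 105 to 2719 for Sox21.

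In replicate 2 at 48 h the family did not move as a block. Sox3, Sox4 and Sox21 stood below 0.5 of the mean of the other 2 libraries in both genotypes, and Sox1, Sox2 and Sox6 stood between 0.433 and 0.776 of it. Sox11 stood above it, at 1.21 in libraries labelled Chd5-/- and 1.59 in wild type, and Sox5 at 1.35 and 0.964. These libraries were also those with high mitosis genes and, among the astrocyte markers, a summed level of 1305 CPM in the library labelled Chd5-/- and 466 CPM in wild type, against 3632 to 3641 CPM and 2370 CPM in the other 48 h libraries of each genotype. The part of these differences in the SOX levels was not tested.

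Of 10 further SOX genes, Sox12 (SOXC) and Sox13 (SOXD) passed the filter on low counts. In wild type Sox13 rose by 48 h (1.55 ± 0.30, adjusted p = 0.00727), at 19.6, 18.7 and 18.9 CPM against 5.87, 7.29 and 6.38 CPM at 3 h, a call that was lost in a fit of the wild-type libraries alone (adjusted p = 0.0864). In that fit 0 of all tested genes passed. Sox12 fell in wild type (-1.05 ± 0.32, adjusted p = 0.0374), at 17.1, 24.4 and 14.8 CPM at 48 h against 55.7, 30.9 and 29.7 CPM at 3 h. The Sox12 call was lost without wild-type replicate 1 at 3 h, wild-type replicate 1 or 3 at 48 h, any library labelled Chd5-/- at 3 h or replicate 1 of 48 h with the Chd5-/- label (highest adjusted p = 0.130), with no filter beyond 1 read, and in a fit of the wild-type libraries alone (0.178). In libraries labelled Chd5-/- 0 of these 2 passed over time with edgeR and 1 with DESeq2, and 0 passed between genotypes by either tool. Setting the 3 libraries aside, 2 of 2 passed over time in libraries labelled Chd5-/-, 1 of 2 between genotypes at 48 h and 2 of 2 at 3 h, where 79.0%, 47.2% and 52.5% of all tested genes passed. Sox10, the third SOXE gene and a marker of the oligodendrocyte lineage, had at most 7 reads in a library, and Sox14, Sox17, Sox30 and Sry had 0 reads in every library. The long noncoding RNA Sox2ot, which spans the Sox2 locus, rose by 48 h in wild type (1.81 ± 0.53, adjusted p = 0.035), at 36.0, 7.62 and 37.3 CPM against 7.39, 7.57 and 8.16 CPM at 3 h, so that replicate 2 stayed at the 3 h level. This call was lost with limma-voom, with the length offset, in a fit of the wild-type libraries alone (adjusted p = 0.147), and without any 1 library of either genotype at 3 h or wild-type replicate 1 or 3 at 48 h (adjusted p up to 0.116). In the 9 libraries left, the value was 2.17 (adjusted p = 2.56e-11). Over time in libraries labelled Chd5-/- Sox2ot did not pass with all libraries, at 18.3, 7.08 and 19.1 CPM against 8.94, 9.09 and 9.45 CPM at 3 h. Of 9 such RNAs beside SOX genes, 2 were tested, Sox2ot and Sox1ot, and Sox1ot passed in no comparison with all libraries. Once the 3 libraries were set aside, both were higher at 48 h than at 3 h in each genotype, and between genotypes 1 was higher and 1 lower in libraries labelled Chd5-/- at 48 h and 1 was higher at 3 h.

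Genes linked to SOX proteins were taken from 4 lists, of targets and partners. The lists share Hes5, Fgfr3, Olig2 and Nfia, so their counts are not independent. Of 18 tested genes linked to SOXE proteins in glia and cartilage, 14 were higher and 0 lower at 48 h than at 3 h in libraries labelled Chd5-/- (median log2 fold change 2.86), and 8 were higher and 1 lower in wild type (median 1.42). Of all tested genes 14.1% were higher and 8.03% lower in libraries labelled Chd5-/-, and 12.7% and 10.1% in wild type. Leaving out the 3 libraries gave 16 higher and 0 lower (median 2.66), and 15 higher and 2 lower in wild type (median 1.24), where 79.0% and 76.0% of all tested genes passed. Examples in libraries labelled Chd5-/- were Pdgfra, the receptor that marks oligodendrocyte precursors, at a mean of 42.0 ± 18 CPM at 48 h against 1.39 ± 0.0582 CPM at 3 h (4.91 ± 0.61, adjusted p = 0.000685), and the collagen gene Col11a1, at 173 ± 71.0 against 11.1 ± 1.04 CPM (3.97 ± 0.58, adjusted p = 0.00143; mean ± SD, n = 3). In wild type, Mmd2, a target of SOX9 and NFIA, stood at 35.3 ± 26.4 CPM at 48 h against 1.02 ± 0.274 CPM at 3 h (5.12 ± 0.82, adjusted p = 0.00377), a call lost in a fit of the wild-type libraries alone (0.0840). That fit called 0 of all tested genes. Between genotypes Aqp4, the astrocyte water channel, was lower in libraries labelled Chd5-/-, at 5.25 ± 0.384 against 72.6 ± 40.4 CPM at 48 h (-3.79 ± 0.63, adjusted p = 0.0098) and at 0.566 ± 0.0616 against 7.29 ± 4.66 CPM at 3 h (-3.68 ± 0.67, adjusted p = 0.0085). The Aqp4 call at 48 h did not survive removal of replicate 1 or of replicate 3 of that time with the Chd5-/- label (highest adjusted p = 0.0561), and that at 3 h was lost with limma-voom and on removal of replicate 1 with that label (0.0541). Aqp4 is 1 of the 6 astrocyte markers, whose sum at 48 h was higher in each numbered library labelled Chd5-/- than in its wild-type counterpart. At both times the sign for Aqp4 was the opposite of that for Sox9 (0.99 and 0.55, neither past the test).

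In the same list 2 genes were higher and 1 lower in libraries labelled Chd5-/- at 48 h, and 0 were higher and 3 lower at 3 h, beside 2.74% and 6.71% of all tested genes. With the 3 libraries left out these counts were 9 and 5 at 48 h and 2 and 9 at 3 h, beside 47.2% and 52.5%. Pdgfra was higher at 48 h, at 42.0 ± 18 against 7.11 ± 1.90 CPM in wild type (2.56 ± 0.54, adjusted p = 0.0301). That call was lost with the length offset (adjusted p = 0.121), in a fit of the 48 h libraries alone, and on removal of any wild-type library of 48 h, any 3 h library with the Chd5-/- label, or replicate 1 or 3 of 48 h with that label (highest adjusted p = 0.117). Of 16 tested progenitor genes linked to SOXB1 proteins, 2 were higher and 3 lower at 48 h than at 3 h in libraries labelled Chd5-/-, and 6 were higher and 2 lower in wild type (8 and 6, and 9 and 5 in wild type, without the 3 libraries). The shares of all tested genes were 22.1% and 22.9%, and 79.0% and 76.0% without the 3. Nes, the intermediate filament of neural stem cells, fell to 445 ± 107 CPM at 48 h in libraries labelled Chd5-/-, against 1171 ± 36.3 CPM at 3 h (-1.40 ± 0.32, adjusted p = 0.0114). The Notch effector Hes5 rose in both genotypes (5.03 ± 0.90, adjusted p = 0.00388, and 3.25 ± 0.83, adjusted p = 0.0208 in wild type), and the wild-type call was lost with limma-voom, in a fit of the wild-type libraries alone (0.131), and without wild-type replicate 2 or 3 at 3 h or 1 or 3 at 48 h (up to 0.0662). In both genotype comparisons 0 of these 16 passed, with 4 at an unadjusted p under 0.05 each time. When the 3 were left out, 3 were higher and 11 lower at 48 h, and 6 higher and 6 lower at 3 h, beside 47.2% and 52.5% of all tested genes.

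Of 12 tested genes on the list linked to SOXC proteins in neurons, 3 were higher and 1 lower at 48 h than at 3 h in each genotype, beside 22.1% of all tested genes in libraries labelled Chd5-/- and 22.9% in wild type. The higher genes of each genotype included the Notch effector Hes5, which is also counted on the SOXB1 list. Between genotypes 0 passed at either time, with 2 at an unadjusted p under 0.05 at 48 h and 4 at 3 h. In the smaller set of 9 libraries, 13 were tested: over time 6 were higher and 5 lower in libraries labelled Chd5-/- and 11 higher and 2 lower in wild type (79.0% and 76.0% of all tested genes), and between genotypes 4 were higher and 8 lower at 48 h and 5 higher and 4 lower at 3 h (47.2% and 52.5%). Stmn1, a tubulin-binding protein of dividing precursors and young neurons, was the lower one in both, at 124 ± 55.2 against 415 ± 19.5 CPM in libraries labelled Chd5-/- (-1.74 ± 0.45, adjusted p = 0.0203) and at 161 ± 30.0 against 700 ± 485 CPM in wild type (-2.12 ± 0.46, adjusted p = 0.0111). The first of these was lost without any 1 library labelled Chd5-/- at 3 h or replicate 1 or 3 at 48 h (highest adjusted p = 0.0862), and the wild-type call in a fit of the wild-type libraries alone (0.103). Dcx, which marks migrating neuroblasts, was higher at 48 h in libraries labelled Chd5-/-, at 10.8 ± 9.26 against 0.161 ± 0.158 CPM (6.03 ± 1.63, adjusted p = 0.0239), a call lost with limma-voom (0.186) and without any 1 library labelled Chd5-/- at 3 h or replicate 1 or 3 at 48 h (up to 0.0896). Of 16 genes of SOX partner proteins, 0 were higher and 1 lower over time in libraries labelled Chd5-/- (Nr2e1, -1.06 ± 0.32, adjusted p = 0.0355), and 2 were higher and 0 lower in wild type (Pou3f3 and Chd7), beside 22.1% and 22.9% of all tested genes. The Nr2e1 call was lost with no filter beyond 1 read, with the length offset, and without any 1 library labelled Chd5-/- or wild-type replicate 1 or 3 at 48 h (adjusted p up to 0.122), and those of Pou3f3 and Chd7 in a fit of the wild-type libraries alone (0.139 and 0.170) and without wild-type replicate 1 or 3 at 48 h (up to 0.0705 and 0.0873), for Chd7 also with no filter beyond 1 read and without any library labelled Chd5-/- at 3 h or replicate 1 or 3 at 48 h. Among the 9 libraries alone, 8 partners were higher and 7 lower over time in libraries labelled Chd5-/- and 9 higher and 6 lower in wild type (79.0% and 76.0% of all tested genes), and between genotypes 6 were higher and 7 lower at 48 h and 11 higher and 3 lower at 3 h (47.2% and 52.5%). Between genotypes Lef1 was lower in libraries labelled Chd5-/- at 3 h, at 0.984 ± 0.321 against 8.02 ± 3.09 CPM (-3.02 ± 0.46, adjusted p = 0.0031), and at 48 h 0 of 16 passed, with 2 at an unadjusted p under 0.05.

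The labelled cell type was checked against markers. Of 13 neural stem cell and radial glia markers, 12 reached 1 CPM, and their summed level was 5871 to 7351 CPM in libraries labelled Chd5-/- at 48 h, 6816 to 7367 CPM in wild type at 48 h, 9679 to 10019 CPM in libraries labelled Chd5-/- at 3 h and 6399 to 8813 CPM in wild type at 3 h. Of 6 microglia and leukocyte markers 0 reached 1 CPM, with Tyrobp at 0 reads, and 6 endothelial markers summed to at most 9.1 CPM. Of 10 neuron markers 9 reached 1 CPM, with Slc17a6 at 0 reads, and of 8 oligodendrocyte lineage markers 6 did. The 6 fibroblast and mural markers summed to 567 to 599 CPM in libraries labelled Chd5-/- at 3 h and to 5.88 to 9.22 CPM in wild type at 3 h, with 2 of the 6 reaching 1 CPM in any library, and at 48 h to 6.75 to 15.3 and 5.45 to 7.27 CPM. Neuron markers summed to 1204 to 1312 CPM in libraries labelled Chd5-/- at 3 h and to 242 to 652 CPM in wild type at 3 h. The fibroblast and neuron sums were thus higher in libraries labelled Chd5-/- at 3 h. The part of these sums in the SOX differences was not tested. Chondrocyte markers, a tissue where Sox5, Sox6, Sox8 and Sox9 also act, summed to at most 8.75 CPM.

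Genes whose levels ran most like those of 4 members were found among 10235 genes by Pearson's r of log2(CPM + 1) over the 12 libraries, as a description. Sox9 ran closest to Gpt2 (r = 0.985), Ganc (0.985) and Hk1 (0.974). Sox2 ran closest to Aftph (0.991), Arhgef28 (0.989) and Prex1 (0.986). Sox21 ran closest to Pnrc1 (0.994), Myo10 (0.987) and Clip1 (0.986), and Sox11 to Pak6 (0.969), Slc20a1 (0.962) and mt-Nd6 (0.955). The 12 points share the 4 group means and the 3 libraries that stood apart, which alone can give a high r.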

How the data were processed

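RNA from the 12 samples was made into stranded poly(A) libraries with the TruSeq kit, per the labels' protocols. Per the submitters' processing notes transcripts were quantified with Salmon, and its version, settings and index are not given in the material used here. The deposited tables hold estimated counts and TPM for 140658 transcripts per library. Of these, 140137 matched the GENCODE M21 annotation (GRCm38) and 521 did not (0.135% to 0.181% of reads, left out). The authors' estimated counts were added up by gene, for 54356 genes, and rounded. TPM as deposited were summed per gene.

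Counts were tested with edgeR 4.0.16 in R 4.3.3: filterByExpr (minimum count 10, minimum total count 15), TMM scaling, 1 mean per group over all 12 libraries, two-sided quasi-likelihood F tests and Benjamini-Hochberg adjustment over 16043 genes. A gene was called at an adjusted p under 0.05. SE is the log2 fold change over the square root of F. The fit was tested on simulated data in which no library stood apart, so that test does not cover the libraries that did. Alternatives were DESeq2 1.42.0, voom weights in limma 3.58.1, RLE scaling, a filter of 1 read in all or of 1 CPM in 3 libraries, a transcript length offset, a fit of the compared groups alone, replicate numbers as a block, and the removal of each library in turn. A fit without the 3 libraries that stood apart was added with the data seen.

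The same-numbered libraries at 48 h deviated together from their group means (r = 0.56, 0.74 and 0.56). Replicates 1 and 3 did so across numbers too (r = 0.58 and 0.6), so the values match only replicate 2 between genotypes. This comes from the data and not from the labels. At 3 h the same-numbered libraries gave 0.15, 0.08 and 0.05. The SOX genes and the lists of other genes were chosen with earlier results of these data known. From each list up to 4 called genes with the smallest p were eligible to be named. Sox6-205 was named after its values were seen.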

Additional observations from a re-analysis of the deposited data

How the results depend on the processing

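The calls of Sox9 (higher) and Sox11 (lower) over time in libraries labelled Chd5-/- held under all alternatives. Leaving out each library in turn gave 2 to 5 SOX calls over time in libraries labelled Chd5-/-, 0 to 7 in wild type, 0 to 2 between genotypes at 48 h, 0 to 1 at 3 h and 0 for the difference between courses; the matching ranges over all genes were 1708 to 7280, 1464 to 5419, 184 to 1454, 419 to 1636 and 15 to 310. Without wild-type replicate 2 at 48 h, 7 SOX genes passed over time in wild type (4674 of 16538 tested genes). Leaving out wild-type replicate 1 at 3 h gave 2 calls at 48 h between genotypes, Sox5 and Sox9 (1454 of 16728 tested genes).

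DESeq2 gave 1 SOX call between genotypes at 48 h and 1 at 3 h; over all genes it gave 920 (440 with edgeR) at 48 h, 2091 (1077) at 3 h and 385 (37) for the difference between courses. With only the libraries compared, 8 SOX genes passed over time in libraries labelled Chd5-/- (7836 of all genes, against 3544) and 0 in wild type (0 of all genes, against 3668). Between genotypes these fits gave 1 SOX gene at 3 h (991 of 14655 tested genes) and 0 at 48 h (263 of all genes). The length offset gave 263 of all genes at 48 h and 22 for the difference between courses. Without the 3 libraries that stood apart, 10, 10, 10, 8 and 9 SOX genes passed, and over all genes 13029 over time in libraries labelled Chd5-/-, 12539 in wild type, 7791 at 48 h, 8659 at 3 h and 6669 for the difference between courses.

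With a replicate block, 1 SOX gene passed between genotypes at 3 h (Sox1, 1.04, adjusted p = 0.0268), beside 1384 of 16043 tested genes. Over time 3 SOX genes passed in libraries labelled Chd5-/- (1914 of all genes) and 0 in wild type (777 of all genes). The block thus ended the call of Sox8 in libraries labelled Chd5-/- (adjusted p = 0.08). In wild type it ended those of Sox5, Sox8 and Sox9 (adjusted p = 0.0668, 0.12 and 0.0693). Between genotypes at 48 h the block changed no SOX call (502 of all genes). In every comparison the labels give the libraries no pairing beyond a shared number.

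Directions turned for members in comparisons that they did not pass with all libraries. Between genotypes at 3 h, leaving out 1 library at a time gave -0.04 to 0.72 for Sox2, -0.27 to 0.25 for Sox3, -0.05 to 0.69 for Sox5 and -0.59 to 0.12 for Sox21; without the 3 libraries Sox2 was -0.04, Sox5 -0.05 and Sox3 0.25, and Sox21 was 0.08 with limma-voom and 0.09 with the replicate block. At 48 h Sox21 ran from -0.71 to 0.15. Over time in libraries labelled Chd5-/-, Sox3 ran from -0.09 to 0.44. For the difference between courses, Sox2 ran from -0.05 to 0.71, Sox4 from -0.47 to 0.41, Sox6 from -0.44 to 0.12 and Sox21 from -0.55 to 0.35; without the 3 libraries Sox4 was 0.25, Sox6 0.01 and Sox21 0.31, and Sox6 was 0.51 with the length offset. The causes were not tested. Sox5 had the lowest read count of the members, 26 in wild-type replicate 1 at 3 h, a library that stood apart. Depth alone does not set that count. The library had 14.11 M reads, while replicate 3 labelled Chd5-/- at 48 h had 14.12 M and 772 Sox5 reads.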
